A study of Drosophila melanogaster with 24 samples.

Results

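The genes of the sex identity pathway, from the counting of X chromosomes to the male identity factor of the germ line, were followed in adult *Drosophila* testes. They are the 10 genes *Phf7*, *Sxl*, *tra*, *tra2*, *dsx*, *fru*, *ix*, *ovo*, *otu* and *snf*, chosen by symbol. All 10 were listed on each of the 4 days, among 12714, 12996, 12961 and 12620 genes for days 0, 1, 3 and 5. RNA was sequenced from testis cells of males in which *nos-Gal4*, a driver active in early germ cells, expressed an RNAi transgene against *mCherry* (Ctrl KD) or against *Set1* (*Set1* KD). *Set1* encodes the main H3K4me3 methyltransferase of the fly. Crosses were kept at 18°C until eclosion, and the males were then held at 25°C for 0, 1, 3 or 5 days. Each group held 3 libraries, 24 libraries in all, and each library was made from pooled pairs of testes. The testes were desheathed, and the cells were dissociated and filtered but not sorted, so germ cells at every stage and somatic cells contributed RNA, although the labels name the cell type as germ cell.

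In the deposited tables used here, each gene has the authors' mean normalized count over the 6 libraries of a day, with both genotypes in that mean. The authors' own comparison of *Set1* KD with Ctrl KD was not used, and values per library or per genotype were not analysed here. The values below are therefore levels of the whole set of libraries of a day. They carry no error of their own, no difference between days or genes was tested, and a change from day to day cannot be told apart between Ctrl KD and *Set1* KD. In bulk samples, fewer cells of a type and less RNA per cell cannot be told apart either.

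Sex in the fly soma is set by the number of X chromosomes, which decides whether the RNA-binding protein Sxl is made. Sxl directs female splicing of *tra*, and Tra, together with Tra2, directs female splicing of *dsx* and *fru*. Without Sxl and Tra, the male forms of these transcripts are made. The germ line reads its sex partly from the surrounding soma and partly on its own. The genes *ovo*, *otu* and *snf* are needed for *Sxl* function in the female germ line, and Phf7, a PHD finger protein that binds methylated histone H3 at the residue Set1 modifies, promotes male identity. Since *Sxl*, *tra*, *dsx* and *fru* act through sex-specific splicing, and *Phf7* through a male-specific start of transcription, a count per gene adds up forms of opposite meaning.

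The members are spread over 4 chromosome arms, with 5 on X, 2 each on 2R and 3R, and 1 on 3L. Positions are from the Ensembl annotation of BDGP6 (dm6 coordinates), and all 10 have the same span in RefSeq. *Phf7* lies on X between 20160355 and 20165830 on the minus strand, with 3 annotated transcripts from 2 start sites and 2505 bases of merged exons. *Sxl* lies on X between 7074550 and 7098053 (minus strand) and has 25 transcripts from 4 start sites. *fru*, on 3R between 18414273 and 18545586 (minus strand), has 15 transcripts from 7 start sites and 18433 bases of exons. By contrast, *snf*, on X between 5309242 and 5310501 (plus strand), and *ix*, on 2R between 11359437 and 11360163 (minus strand), have 1 transcript each, with 835 and 727 bases of exons. The annotation places *tra* on 3L between 16590059 and 16591050, *tra2* on 2R between 14602004 and 14604337, *dsx* on 3R between 7924323 and 7967408 and *otu* on X between 8485008 and 8489535, all on the minus strand. *ovo* lies on X between 5048273 and 5070929 on the plus strand.

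Exons of 6 members overlap those of another gene, by at most 8.58% of their length. This largest overlap is between *tra* and *l(3)73Ah* on the opposite strand, followed by 4.74% for *otu*, which overlaps *CG33181* on the opposite strand. The library kit marks strand, but the strand setting of the counting is not given in the sources used here.

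*Phf7* was detected at a level near the middle of all listed genes. Its mean normalized count was 237.7, 306.7, 531.1 and 441.8 at days 0, 1, 3 and 5. By this count, the values of days 3 and 5 were both above those of days 0 and 1. To compare genes with each other, each mean was divided by the merged exon length and scaled so that all listed genes of a day sum to 1000000, which gives a length-scaled level in parts per 1000000. This level of *Phf7* was 8.09, 7.84, 13.7 and 13.9 at days 0, 1, 3 and 5, and the median over all listed genes lay between 9.25 and 11.3. Per length, *Phf7* thus lay below the median gene on days 0 and 1 and above it on days 3 and 5, with 45.6%, 46.5%, 55.4% and 54.3% of the other genes lower. The place on days 0 and 1 depends on the division by length. By mean normalized count alone, *Phf7* was above the median gene on all 4 days, with 50.04%, 51.0%, 59.3% and 58.4% of the other genes lower.

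**Figure D1:**
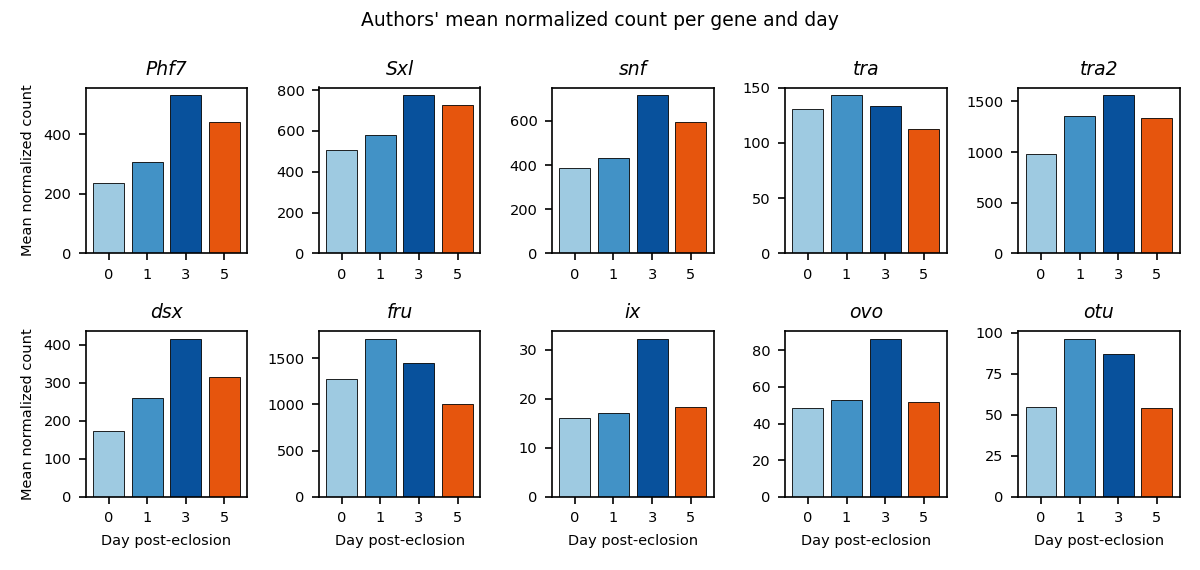
The authors' mean normalized count (y axis, from 0, a separate scale in each panel) of the 10 sex identity genes at days 0, 1, 3 and 5 post-eclosion (x axis). Each bar is a mean over the 6 libraries of a day, with no error available. *Phf7* had 237.7 at day 0 and 531.1 at day 3, and *ix* stayed at or under 32.2.

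*Sxl*, the switch gene of the pathway, had a larger mean normalized count than *Phf7* on every day, at 504.4, 579.2, 773.8 and 725.4 at days 0, 1, 3 and 5. Its exons are longer, and per length the order was the opposite. The length-scaled level of *Sxl* was 4.68, 4.04, 5.45 and 6.21 on the same days, so that of *Phf7* was between 1.73 times (day 0) and 2.52 times (day 3) that of *Sxl*. Such ratios between genes depend on the length used. *Sxl* has 9192 bases of merged exons but a longest transcript of 5964, whereas both are 2505 for *Phf7*. By the longest transcript, the ratio of *Phf7* to *Sxl* would be smaller. Between 33.1% and 37.3% of the other genes had a lower level than *Sxl*. These values add up all annotated forms of *Sxl*, and the share that encodes a functional Sxl protein was not measured.

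*snf* encodes a protein of the U1 and U2 snRNPs that the splicing machinery uses in every cell, and that is needed for *Sxl* splicing in females. It was one of the 2 most abundant members per length on each day. Its mean normalized count was 385.9, 431.2, 715.4 and 594.0 at days 0, 1, 3 and 5, and its length-scaled level was 39.4, 33.1, 55.5 and 56.0. This level was 8.20 to 10.2 times that of *Sxl*. By mean normalized count, *snf* was 0.74 to 0.92 times *Sxl*, so which of the 2 is higher depends on the division by length.

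The other most abundant member was *tra2*, which encodes the general splicing partner of Tra and also has a role in the male germ line. Its mean normalized count was 980.7, 1359, 1558 and 1336 at days 0, 1, 3 and 5. The length-scaled level was 45.4, 47.2, 54.7 and 57.0, and at least 75.8% of the other genes were lower. *tra*, whose product confers female sex in the soma, had a mean normalized count of 130.4, 142.9, 133.0 and 112.6 and a length-scaled level of 12.9, 10.6, 10.0 and 10.3. The ratio of *tra2* to *tra* within a day does not depend on how days are scaled. It was 3.52, 4.44, 5.48 and 5.55 at days 0, 1, 3 and 5.

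The targets of the splicing cascade, *dsx* and *fru*, encode transcription factors. *dsx*, which sets sex in somatic tissues including those of the gonad, had a mean normalized count of 172.5, 259.1, 415.6 and 314.6 at days 0, 1, 3 and 5. Its length-scaled level was 1.60, 1.81, 2.94 and 2.70, higher on the later than on the earlier days, and at most 25.4% of the other genes were lower. *fru*, best known for its male-specific proteins in the nervous system, had the counts 1280, 1711, 1448 and 1009 and the length-scaled levels 5.92, 5.94, 5.09 and 4.31. Within a day, the level of *fru* was 3.69, 3.28, 1.73 and 1.59 times that of *dsx* on these days. This ratio was smaller on each later day. Both levels take all transcripts of a gene together, for *fru* 15 from 7 start sites, without setting apart those spliced by Tra and Tra2. The size of the ratio depends on the length used. *fru* has 18433 bases of merged exons and a longest transcript of 8399, and *dsx* has 9167 and 6941.

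*ix*, a subunit of the Mediator complex that acts with the female form of Dsx, had the lowest mean normalized count of the members on each day, at 16.0, 17.1, 32.2 and 18.4. Its values thus rest on the fewest reads of the 10 members. Divided by its short exons, these gave levels of 1.88, 1.51, 2.87 and 1.99, close to those of *dsx*.

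*ovo* and *otu* were at the lower end, unlike *snf*, which is also needed for *Sxl* function in the female germ line. *ovo*, which encodes zinc finger transcription factors needed in female germ cells and, as *shavenbaby*, in the epidermis, had a mean normalized count of 48.4, 52.8, 86.4 and 51.9 at days 0, 1, 3 and 5. It was the lowest member per length on each day, with levels of 0.558, 0.457, 0.756 and 0.552, and at most 8.03% of the other genes were lower. *otu*, which encodes a deubiquitinase needed in the female germ line, had the counts 54.6, 96.5, 87.1 and 54.5 and the levels 1.36, 1.81, 1.65 and 1.25. Per length, *otu* was 2.18 to 3.95 times as abundant as *ovo*, whereas *Phf7* was 14.5 to 25.1 times as abundant as *ovo*.

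**Figure D2:**
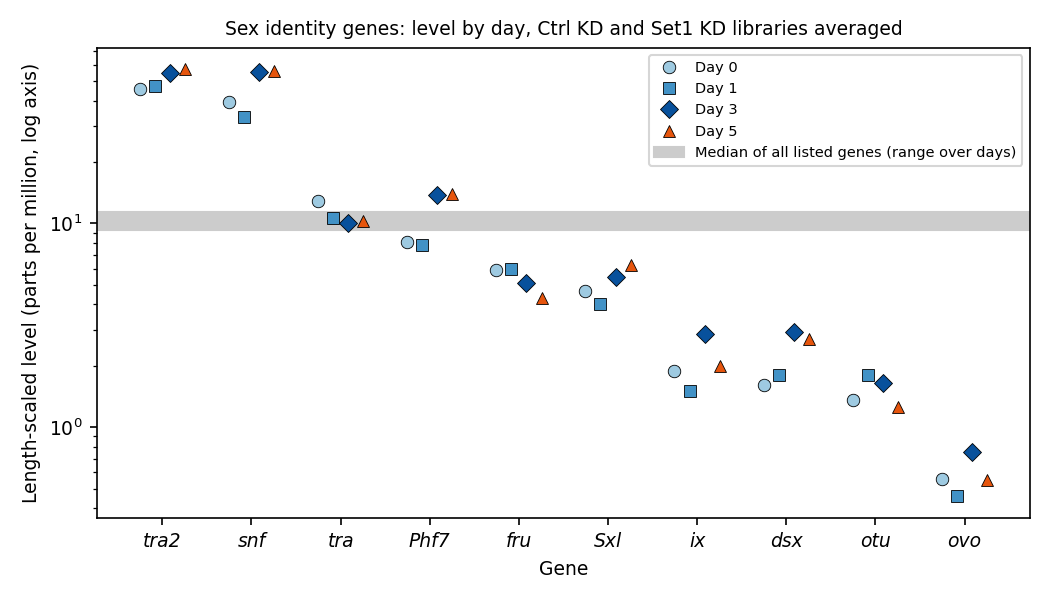
Length-scaled level (y axis, parts per 1000000, log axis) of the 10 genes (x axis) at each day, ordered by the level at day 0. Each point is 1 day over both genotypes and the gray band is the range over days of the median of all listed genes. *tra2* and *snf* lie above the band on each day, and *ovo* is the lowest gene on each day.

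Ordered by length-scaled level at day 0, the members ran *tra2*, *snf*, *tra*, *Phf7*, *fru*, *Sxl*, *ix*, *dsx*, *otu* and *ovo*. This order rests on the merged exon length. The neighbours *tra* and *Phf7* changed places by day 3 and kept the new order at day 5, as did *fru* and *Sxl*. *snf* was ahead of *tra2* at day 3 alone, *dsx* was ahead of *ix* from day 1 on, and *otu* was ahead of *ix* at day 1 alone. Which of these neighbours differ beyond the spread between libraries was not tested. On each day, 3 of the 10 members had a level above the median of all listed genes, namely *tra*, *tra2* and *snf* on days 0 and 1 and *Phf7*, *tra2* and *snf* on days 3 and 5. With the longest transcript as the length, *fru* was above the median as well on days 0, 1 and 3. The median member had 36.7% of all other genes below it at day 0 and 33.7% at day 5.

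The level of a gene on different days was set side by side as a ratio. Each day was normalized separately by the authors, so the deposited means themselves shift between days. Over the 12240 genes listed on all 4 days and with a length, the median gene was 0.52 higher at day 3 than at day 0 on the log2 scale of the deposited means and 0.12 higher on the length-scaled level. The ratio of each member was therefore also divided by that of the median gene, which gives nearly the same value on either scale. In length-scaled level, 6 of the 10 members (*Phf7*, *Sxl*, *dsx*, *ix*, *ovo* and *snf*) differed by over 1.5-fold between their lowest and highest day, compared with 28.4% of all genes. The median of this ratio was 1.60 over the members and 1.32 over all genes. No test stands behind either count, and each member is 1 mean per day.

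From day 0 to day 3, the length-scaled level of 3 members was over 1.5 times as high (*dsx*, *Phf7* and *ix*), compared with 9.74% of all genes. Relative to the median gene, the ratio of day 3 over day 0 was 1.68 for *dsx* and 1.56 for *Phf7*, both above the 95th percentile of all genes, which was 1.54. It was 1.41 for *ix*, 1.30 for *snf*, 1.25 for *ovo*, 1.12 for *otu*, 1.11 for *tra2* and 1.07 for *Sxl*. The values were 0.79 for *fru* and 0.71 for *tra*, the 2 members below the median gene. In length-scaled level both were lower at day 3 than at day 0, but in the deposited means both were higher, by 1.13 times for *fru* and 1.02 times for *tra*.

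**Figure D3:**
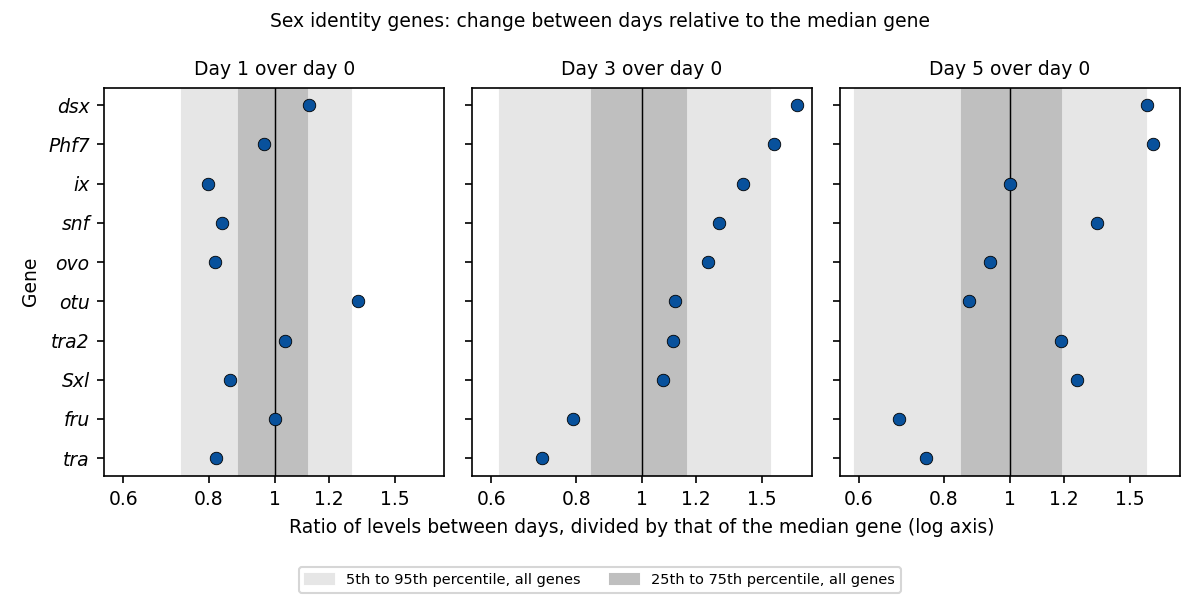
Ratio of the level at day 1, 3 or 5 to that at day 0 for each gene, divided by the ratio of the median gene (x axis, log axis), with the 10 genes ordered by the ratio at day 3. Blue points are the members, and the bands span the 25th to 75th and the 5th to 95th percentiles of 12240 genes. *dsx* and *Phf7* lie beyond the 95th percentile at days 3 and 5, and *otu* does so at day 1.

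Relative to the median gene, the ratio of day 1 over day 0 ran from 0.80 for *ix* to 1.32 for *otu*. The value of *otu* was just above the 95th percentile of all genes, which was 1.30, and rests on means of 54.6 and 96.5. For *Phf7* the ratio was 0.97, for *tra* 0.82 and for *fru* 1.00. Both *Phf7* and *dsx* were beyond the 95th percentile at day 5 as well as at day 3, with ratios of day 5 over day 0 of 1.62 for *Phf7* and 1.59 for *dsx* against a 95th percentile of 1.58. The ratios of day 3 and of day 5 share the same day 0 mean, so the later one is not an independent repeat of the earlier one. *snf*, at 1.34, and *Sxl*, at 1.25, had their highest relative values at day 5, and *fru* had its lowest, at 0.69.

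*ix*, *ovo* and *otu*, the members with the fewest reads, had another course. From day 3 to day 5, the ratio relative to the median gene was 0.71 for *ix*, 0.75 for *ovo* and 0.78 for *otu*, all under the 5th percentile of all genes, which was 0.81. At day 5 their mean normalized counts were 18.4, 51.9 and 54.5, near those of day 0. The day 3 peak of *ix* and *ovo* thus rests on a single day's mean, and how far single libraries carried it was not tested. For *Phf7* the same ratio was 1.04, and for *dsx* 0.94.

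Markers of the cells in the testis were set beside these values. Spermatid genes had the highest summed level of the lists used, with 11961 parts per 1000000 at day 0 for a list of 10 genes, and 11186 to 11845 on the other days. All 9 spermatocyte genes, all 7 cyst lineage genes and all 4 hub genes were listed on each day. The 7 early germ cell genes were listed as well, with a summed level of 103.1, 92.0, 125.2 and 118.6 at days 0, 1, 3 and 5. Relative to the median gene, 6 of these 7 were higher at day 3 than at day 0, with a median ratio of 1.42. Their courses differed. *vas*, the RNA helicase that marks the germ line, had levels of 5.29, 5.31, 8.83 and 8.89 at days 0, 1, 3 and 5. *AGO3*, the most abundant gene of the list, had 51.2, 40.3, 50.7 and 48.3, and *bgcn* had 17.2, 22.0, 19.4 and 17.8. The part of early germ cells in the higher values of *Phf7* was not tested. The cyst lineage list, which marks the somatic cells around the germ cells, had a summed level of 61.2 at day 0 and 72.1 at day 3, and 6 of its 7 genes were higher at day 3 relative to the median gene. So were 7 of the 9 spermatocyte genes (median ratio 1.13), 2 of the 4 hub genes (1.02) and 4 of the 10 spermatid genes (0.85). The summed level of the spermatocyte list was 377.6 at day 0 and 434.6 at day 3.

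Of the 14 lists used, that of the muscle sheath differed most in summed level between days 0 and 3. Its 6 genes, among them the actin gene *Act57B*, had a summed level of 1799.8, 1263, 853.9 and 671.0 at days 0, 1, 3 and 5, and all 6 were lower at day 3 than at day 0. By the study's methods the testes were desheathed before dissociation, and RNA of this list was measured on each day all the same. Its part in the values of *fru* and *tra*, which were also lower per length on the later days, was not tested. Of 10 genes of the ovary or female germ line, 6 were listed on each day (*grk*, *bcd*, *CycB3*, *Yp3*, *fs(1)N* and *dec-1*), with a summed level of 42.8, 48.5, 48.5 and 48.9 at days 0, 1, 3 and 5. *CycB3*, a cyclin gene, made up the largest part of it, with 22.8 to 27.8. The other 4, *osk*, *Cp36*, *Yp1* and *Yp2*, were not listed on any day. Of 4 fat body genes, 3 were listed at day 0 and 2 on each other day. Their summed level was 10.9, 8.71, 7.26 and 7.67 at days 0, 1, 3 and 5. The gene listed at day 0 alone made up 1.07 of that day's sum, so the sums are not over the same genes.

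**Figure D4:**
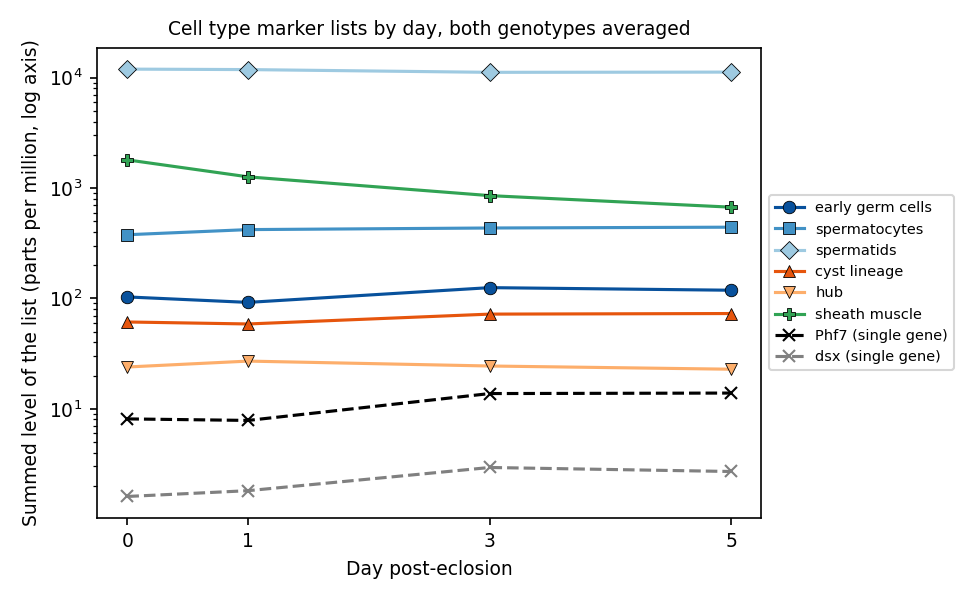
Summed length-scaled level of 6 cell type marker lists, and the level of *Phf7* and *dsx* (y axis, parts per 1000000, log axis), by day post-eclosion (x axis), with both genotypes in each mean. The sheath muscle list runs from 1799.8 at day 0 to 671.0 at day 5, and the early germ cell list from 103.1 to 118.6.

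Other genes of the pathway were taken from lists by role. Upstream of *Sxl*, the X counting signal is read in the early embryo. Of 9 genes of this list, *sc*, *run* and *dpn* were not listed on any day and *sisA* was not listed at day 5. *gro*, a general corepressor, had the highest level at day 0 (42.2). The 8 genes linked to *Sxl* splicing through m6A, a mark on RNA, and its writer complex were all listed, from *vir* at 2.46 to *Mettl3* at 26.6 at day 0. The reader of that mark, *Ythdc1*, had levels of 6.98, 6.26, 11.1 and 10.6 at days 0, 1, 3 and 5, and the writer subunit *fl(2)d*, which is needed for *Sxl* splicing, had 4.88, 4.91, 7.53 and 7.28. Relative to the median gene, 6 of the 8 genes were higher at day 3 than at day 0, with a median ratio of 1.11. The exceptions were *vir* and *Mettl3*. *vir* had 2.46, 2.53, 2.49 and 2.56 at days 0, 1, 3 and 5, and *Mettl3* had 26.6, 29.4, 25.6 and 23.6.

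Genes that keep *Phf7* silent in the female germ line form a second list of 4. *egg*, an H3K9 methyltransferase, had levels of 4.09, 4.76, 6.23 and 6.03 at days 0, 1, 3 and 5, and its partner *wde* had 3.84, 4.01, 5.14 and 5.66. The gene of HP1a, the protein that binds this mark, was the most abundant of the list, with 86.3, 82.8, 130.2 and 131.5, and *stwl* had 5.17, 4.96, 5.42 and 6.36. RNA of these repressors and of *Phf7* was thus detected in the same libraries' means, with 3 of the 4 repressors higher at day 3 than at day 0 relative to the median gene (median ratio 1.31).

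Of the 9 genes listed as downstream of *dsx* or of gonadal sex identity, 7 were listed on each day. *chinmo*, which maintains male identity in the cyst stem cells, had levels of 9.96, 9.22, 8.56 and 10.4 at days 0, 1, 3 and 5. *tj*, a factor of the cyst lineage, had 0.706, 1.03, 2.59 and 1.74, and *Stat92E*, the transcription factor of the JAK-STAT pathway, had 16.0, 16.2, 25.5 and 24.2. Among the partners of *ovo* and *otu* in the germ line, *stil* had 58.8, 59.9, 67.1 and 63.6, far above *ovo* and *otu* themselves, and *bam*, which ends the divisions of spermatogonia, had 2.64, 3.16, 4.58 and 4.18.

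The transcript of *Set1* itself had a mean normalized count of 213.3, 260.8, 399.4 and 349.6 at days 0, 1, 3 and 5. As a mean over both genotypes, it does not check the knockdown.

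The genes whose course over the days was most like that of *Phf7* were sought among the 12057 genes whose mean count did not drop under 10 on any day. Likeness was the root mean square difference of the log2 level over 4 days, centred on each gene's own mean. *CG10445* (0.01), *Pdcd4* (0.02) and *Pex2* (0.02) came closest, and 294 genes (2.44%) lay within 0.1. Of the other members, *dsx* (0.10, place 273) was among these and *snf* (0.11, place 394) was just outside, whereas *tra* and *fru* were at places 9909 and 10828. With 4 means per gene, such likeness is a description of the days and not of shared control.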

How the data were processed

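Per the paper's methods and the submitters' processing notes, the authors checked reads with FastQC, mapped them with Bowtie2 2.5.1 to BDGP6 (dm6), counted them on RefSeq genes with featureCounts, and compared the 6 libraries of a day with DESeq2 at its default settings. The strand setting is not given in the sources used here. Each deposited table holds, per gene, the authors' mean normalized count, a signal made from counts divided by size factors of that day. The other 5 columns hold the authors' comparison of *Set1* KD with Ctrl KD (log2 fold change, its standard error, statistic and p-values) and were not used. With no values per library, depth per library is unknown and no test, SD or interval could be given. Per day, the means summed to between 16183460 and 22304872.

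Exon lengths came from Ensembl release 115, and 13381 of 13395 genes had a length (12835 by symbol, 531 by synonym, and 15 mitochondrial genes by their RefSeq span). The other 14 genes, 9 of them with an ambiguous symbol, had none and were left out of the length-scaled levels. The named genes are all members, those of highest or lowest level of each fixed list at day 0, and the 3 closest to *Phf7*. Besides these, *Set1* is named as the target of the knockdown, and others as not listed or as sharing exons with a member. *vas*, *bgcn*, *Ythdc1*, *fl(2)d*, *egg*, *stwl*, *chinmo*, *msl-2*, *mle*, *grk*, *bcd*, *fs(1)N*, *sisA* and *Yp3* were added from the lists for their roles after their values were seen, as were the pairs of members compared within a day and the division by the ratio of the median gene. The members and lists were chosen with earlier results of these data known. The level and percentile steps were tested on simulated data. Python 3.11.15, numpy 2.4.6, pandas 2.3.3 and matplotlib 3.10.9 were used. Sequences of the members were not used here.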

Additional observations from a re-analysis of the deposited data

How the results depend on the processing

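Of 24 repeats of the counts given for the members, 20 stayed within 1.5 times the reported count. The exceptions came without division by exon length. Then 5 members on days 0 and 1 and 6 on days 3 and 5 lay above the median of all genes, compared with 3 on each day per length, and *tra* was below it on each day. The definition of length also changed the members above the median. With the longest transcript in place of merged exons, there were 4 on days 0, 1 and 3, with *fru* added, and 3 on day 5. With the deposited means as they are, 9 members and 62.1% of all genes differed by over 1.5-fold between days, compared with 6 members and 28.4% in length-scaled level, and *fru* and *tra* were higher at day 3 than at day 0 in place of lower. With days scaled by the median of ratios, 6 members differed (*otu* in place of *Sxl*), and the ratio of day 3 over day 0 was 1.56 for *Phf7*, 1.69 for *dsx* and 1.41 for *ix*, which was then under 1.5. Leaving out mitochondrial genes or the 1% of genes with the highest level changed neither the members counted nor the direction of any member. All 10 members also passed a minimum mean count of 10 on each day. No paired analysis was possible because the columns used carry no replicate numbers, and leaving out single replicates could not be run for the same reason. The low means of *ix*, *ovo* and *otu* limit what their changes between days can show.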

Other observations

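Male dosage compensation is the other process that Sxl controls, through its repression of *msl-2*. The 5 genes of this list were listed on each day. *msl-2* had length-scaled levels of 3.38, 3.34, 4.44 and 4.69 parts per 1000000 at days 0, 1, 3 and 5, below those of *Sxl*. The helicase gene *mle* had 7.08, 5.85, 7.50 and 9.94, and *msl-1* was the lowest, at 1.54, 1.46, 1.81 and 2.17. Relative to the median gene, 3 of the 5 were higher at day 3 than at day 0, with a median ratio of 1.07. Of the yolk protein genes, targets of Dsx in the female fat body, *Yp3* was listed on each day while *Yp1* and *Yp2* were not listed, and its level was 5.39, 6.43, 9.24 and 7.15.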
